A study of Homo sapiens with 12 samples.

Results

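The 10 keratin genes described here are the basal keratins KRT5, KRT14 and KRT15, the mucosal keratins KRT4 and KRT13, KRT80, and the simple epithelial keratins KRT7, KRT8, KRT18 and KRT19. They were taken by symbol from a table of 58735 genes, each symbol had 1 identifier, and all 10 passed the filter on low values that left 14577 genes for testing. RNA was sequenced from 12 libraries of HaCaT, an immortalised human keratinocyte line, which is a single line and not a set of donors. The 4 groups of 3 libraries were cells given control siRNA (Control-siRNA), cells given control siRNA and a 24 h stimulation that the labels call mix (Control-siRNA+Mix), cells given siRNA against PHGDH, the first enzyme of serine synthesis (PHGDH-siRNA), and cells given that siRNA and the same mix (PHGDH-siRNA+Mix). What the mix contained is not given in the sources used here, and the design asked how PHGDH knockdown affects gene expression with and without it.

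Keratins form the intermediate filaments of epithelial cells, and each filament is built from pairs of an acidic type I keratin and a neutral to basic type II keratin. KRT5 and KRT14 are the pair of dividing basal cells in stratified epithelia, where KRT15 is a further type I partner, while KRT4 and KRT13 pair in the suprabasal layers of mucosa such as the mouth and oesophagus. KRT8 and KRT18 are the pair of single-layered epithelia, where KRT7 and KRT19 are often found too, and KRT80 is a type II keratin of many epithelia that lies near desmosomes and cell margins. Cultured keratinocytes, HaCaT among them, can carry keratins of all these classes.

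The genes lie in the 2 keratin clusters of the genome, here in hg38. The type II genes on chromosome 12 are KRT80 (ENSG00000167767, 52168996 to 52192000, minus strand), KRT7 (ENSG00000135480, 52232520 to 52252186, plus), KRT5 (ENSG00000186081, 52514575 to 52520687, minus), KRT4 (ENSG00000170477, 52806549 to 52814551, minus) and KRT8 (ENSG00000170421, 52897187 to 52949954, minus). KRT18 (ENSG00000111057, 52948871 to 52952901, plus) is the type I member on chromosome 12 and overlaps KRT8 by 1084 bases on the opposite strand; whether the counting used strand is not given in the sources used here, and without it reads from that stretch cannot be told apart. KRT7 is likewise overlapped by its antisense gene KRT7-AS, which was at 2.74 to 8.51 FPKM. Its range also shares 1721 bases with the pseudogene KRT87P on the opposite strand (0.557 to 3.71 FPKM). With the coding gene KRT86 (0.0903 to 0.732 FPKM) it shares 2887 bases on the same strand, where strand would not tell reads apart. The remaining type I genes are on the minus strand of chromosome 17: KRT13 (ENSG00000171401, 41500981 to 41505705), KRT15 (ENSG00000171346, 41513743 to 41522529), KRT19 (ENSG00000171345, 41523617 to 41528308) and KRT14 (ENSG00000186847, 41582279 to 41586921).

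Members of a type are close in sequence, which bears on how reads are assigned to them. As an example, 24 bases of coding sequence from the motif that ends the central rod are shown from GENCODE 29 transcripts, 5′ to 3′, with the positions that differ among the listed members of a type in capitals. The 5 type I members share 16 of the 24 bases, and KRT13 and KRT15, which lie near each other, are identical here.
KRT14: taccgcCgcctgctGgaGgGCGAG
KRT15: taccgcAgcctgctCgaGgGCCAG
KRT13: taccgcAgcctgctCgaGgGCCAG
KRT18: taccgcCgcctgctGgaAgATGGC
KRT19: taccgcAgcctgctCgaGgGACAG
The 4 type II members in which the motif was found share 21 of the 24 bases, and KRT5 and KRT7 are identical.
KRT5: tacCgCaaGctgctggagggcgag
KRT4: tacCgCaaActgctggagggcgag
KRT7: tacCgCaaGctgctggagggcgag
KRT8: tacAgGaaGctgctggagggcgag
Over whole transcripts, 41.3% of the 50-base windows of KRT8 and 35.1% of those of KRT18 also occurred in other genes, most of them processed copies of the same keratin. For KRT14 the share was 23.8%, with the coding keratins KRT16 and KRT17 among the other genes. KRT5 shared 3.99% with KRT6A, KRT6B and KRT6C. The other 6 members shared between 0% and 1.79%, KRT13 and KRT15 with each other. How the authors' counting treated reads that fit several genes is not given in the sources used here, so levels of KRT8, KRT18 and KRT14 are less certain than those of the others. Reads listed for the 50 KRT8 copies came to 0.331% of the reads of KRT8, and those of the 67 KRT18 copies to 0.138% of the reads of KRT18.

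KRT5 and KRT4 are each other's nearest member in profile over the 12 libraries, and the 250 bases before their starts are shown from RefSeq (GRCh38.p14). Promoter sequences were at hand for 3 of the 10 members. The other was KRT8 (chr12:52926470-52926719). All 3 windows lie inside the gene ranges given above, so these bases are not upstream of the whole annotated gene. The KRT5 and KRT4 windows end near the gene ends at 52520687 and 52814551, while that of KRT8 ends far from 52949954. KRT8 is not printed for that reason, and its window held no match to the motifs searched. Capitals mark matches to the 5 motifs searched on both strands, which were the TATA box TATAAA, its variants ATAAAA and TATAAG, the AP-2 type GCCNNNGGC and the AP-1 type TGANTCA. KRT5 is at chr12:52520395-52520644 and KRT4 at chr12:52814117-52814366, both on the minus strand.
KRT5: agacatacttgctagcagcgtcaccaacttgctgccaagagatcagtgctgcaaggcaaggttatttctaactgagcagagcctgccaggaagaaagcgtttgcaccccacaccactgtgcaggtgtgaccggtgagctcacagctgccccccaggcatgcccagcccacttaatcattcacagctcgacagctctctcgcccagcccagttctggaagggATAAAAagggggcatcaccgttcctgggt
KRT4: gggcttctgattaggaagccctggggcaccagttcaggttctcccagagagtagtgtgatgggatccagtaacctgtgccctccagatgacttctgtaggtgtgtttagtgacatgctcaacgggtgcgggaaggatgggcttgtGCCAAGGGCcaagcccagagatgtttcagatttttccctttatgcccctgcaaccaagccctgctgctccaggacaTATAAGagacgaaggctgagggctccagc
KRT5 has ATAAAA 29 bases before the start and KRT4 has TATAAG at the same distance. Of 35116 promoter windows of this length, 14.8% held ATAAAA and 5.03% held TATAAG. KRT4 also has a GCCNNNGGC match 105 bases before the start, a motif found in 19.8% of the windows. These matches describe the letters and were not tested as sites.

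Levels are FPKM, which the authors' table gives per deposited gene length, and for the 10 keratins that length was 1.13 (KRT80) to 4.08 times (KRT8) the length of the coding transcript used for the sequences here. Levels of different keratins are therefore comparable only as far as that length fits, while changes of 1 gene between libraries do not depend on it. Changes are log2 fold changes of FPKM + 1 with their standard error (SE) from limma, fitted over 14577 genes in 12 libraries, and a change passed where the Benjamini-Hochberg adjusted p was under 0.05. Whether the libraries of a group are separate cultures is not stated in the labels, so a p-value speaks of the spread among these 12 libraries, which may be technical. Recovered reads came to 16403845 to 20901128 per library, and all 12 keratinocyte markers, KRT5 and KRT14 among them, were at 1 FPKM or more in every library. Summed FPKM of the fibroblast, melanocyte, leukocyte and endothelial marker lists stayed between 0.142 and 2.96. The PHGDH transcript was lower under its siRNA with no overlap between groups, although the change passed in neither mix condition (adjusted p = 0.128 and 0.2, limma). The replicate 2 libraries of both PHGDH-siRNA groups, without and with mix, stood apart from replicates 1 and 3: 4.21% of tested genes lay over 1 log2 unit from the mean of the other 2 libraries in the same direction in both. Of the 10 keratins, 6 (KRT5, KRT14, KRT15, KRT13, KRT80 and KRT7) were among these genes, so each comparison is given with the 12 libraries and without this pair, an analysis of 10 libraries and 14507 genes that was added after the data were seen. KRT4 did not pass the filter in that smaller set. The pair stood apart in these keratins, so leaving it out narrows their spread by choice. Calls and p-values of the smaller set are therefore given as description and support nothing further.

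On this FPKM scale, in the Control-siRNA libraries KRT19 had the highest mean, 957 ± 202 FPKM (SD, n = 3), followed by KRT14 (715 ± 163), KRT7 (510 ± 110), KRT5 (474 ± 104), KRT8 (360 ± 88.3) and KRT18 (201 ± 44.5). KRT13 (108 ± 40.8 FPKM), KRT15 (62.8 ± 16.8) and KRT80 (44.4 ± 6.44) came next, and KRT4 was near 0 (0.321 ± 0.233). From KRT19 down to KRT8, and from KRT13 down to KRT80, each gene's range overlapped that of the next, while the ranges of KRT8 and KRT18, of KRT18 and KRT13, and of KRT80 and KRT4 did not overlap. With mix in the control arm the order was led by KRT14 (1333 ± 54.3 FPKM) over KRT19 (780.5 ± 30.3), and KRT13 (7.38 ± 0.712) was below KRT80 (11.2 ± 1.55) and KRT15 (27.9 ± 1.70). There, KRT8 (319 ± 27.5 FPKM) and KRT5 (315 ± 15.2) were the neighbours whose ranges overlapped. KRT14 had the highest mean in both PHGDH-siRNA groups as well (1384 ± 1388 and 1637 ± 953 FPKM), where 8 of 9 neighbours in the order overlapped without mix and 6 of 9 with mix. In PHGDH-siRNA this rests on replicate 2, without which the mean of KRT14 (583 FPKM) was below those of KRT19 (638) and KRT7 (599.9). Per transcript length, an alternative added after the data were seen, the Control-siRNA order was KRT19 (1608 ± 339), KRT8 (1470 ± 360), KRT7 (1189 ± 256), KRT14 (982 ± 223) and KRT5 (803 ± 176), so the place of KRT8 depends on the length used. KRT13 and KRT80 with mix, 12.7 ± 1.22 and 12.6 ± 1.75 on that scale, then overlapped. Together the 10 keratins held 0.982% to 1.99% of the recovered reads of a library.

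**Figure D1:**
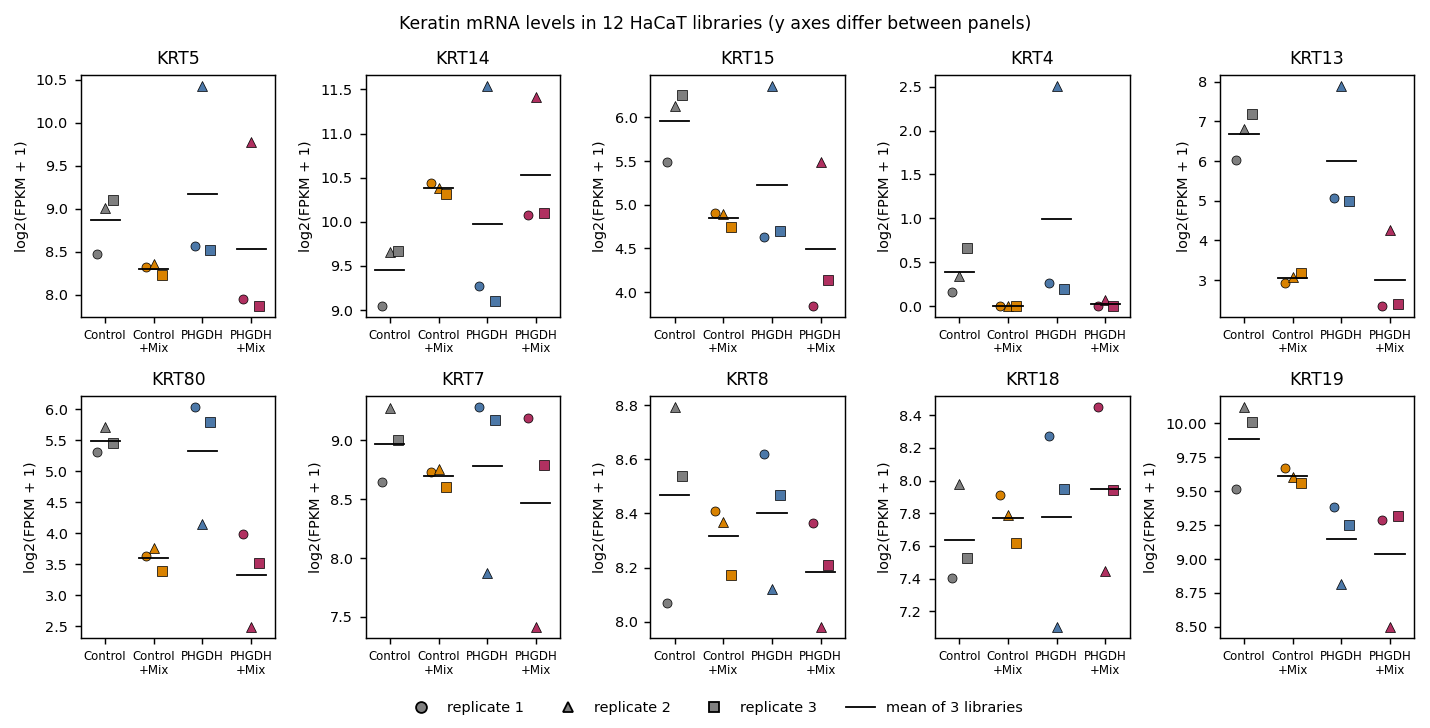
Levels of the 10 keratins as log2(FPKM + 1), 1 panel per gene with its own y axis, for 4 groups on the x axis. Points are libraries, marker shapes are replicate numbers and bars are means of 3 libraries. KRT13 and KRT80 are lower with mix in both arms, and the triangles of the PHGDH groups, replicate 2, lie far from the other points for most genes.

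The mix comparison asked how the keratins differed after 24 h of stimulation, in each siRNA arm. Of the 10 keratins, 2 fell in the control arm, KRT13 and KRT80, and none rose. Of all tested genes 9.54% passed in this comparison, and 3.92% of all tested genes passed as lower. In the PHGDH-siRNA arm KRT13 and KRT80 fell as well, against 8.86% of all tested genes in either direction and 3.64% lower. The median change of the 10 keratins was -0.33 in the control arm and -0.48 in the PHGDH-siRNA arm, beside 0.0040 and 0 over all tested genes. The median of the PHGDH-siRNA arm includes KRT4 (-0.97), which passed the filter through PHGDH-siRNA alone, where it was high. That median is therefore lowered by the filter. The 2 mix comparisons share no library with each other, but each shares libraries with the siRNA comparisons given further on.

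KRT13, the type I keratin of mucosal suprabasal cells, changed most. Control-siRNA libraries held 64.8, 112 and 146 FPKM, and Control-siRNA+Mix libraries held 6.64, 7.45 and 8.06 FPKM. All 3 mix libraries were far below the lowest library without mix, a 14.6-fold lower mean (log2 fold change -3.62, SE 0.73, adjusted p = 0.0108, limma). In the PHGDH-siRNA arm the levels were 32.7, 239 and 31.0 FPKM without mix and 4.08, 18.3 and 4.23 FPKM with it. The groups again did not overlap, although replicate 2 was the highest library in both, and the mean was 11.4-fold lower with mix (-2.99, SE 0.73, adjusted p = 0.0283). Without the replicate 2 pair both falls passed (-3.62, adjusted p = 1.36e-05, and -2.67, adjusted p = 0.00045), and the PHGDH-siRNA arm mean was then 7.67-fold lower. In the 12-library fits the control arm call ended without Control-siRNA replicate 3 (adjusted p = 0.0531), and the PHGDH-siRNA arm call ended without PHGDH-siRNA+Mix replicate 1 (0.0911) or replicate 3 (0.108), without the filter on low values (0.0891) or with the 2 groups fitted alone (0.198).

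KRT4, the type II partner of KRT13 in mucosa, was hardly present. The 3 Control-siRNA libraries held 7, 16 and 36 recovered reads of it, and the 3 Control-siRNA+Mix libraries held 0. PHGDH-siRNA libraries held 11, 299 and 9 reads, which is 0.201, 4.71 and 0.146 FPKM, and PHGDH-siRNA+Mix libraries held 0, 3 and 0 reads. KRT4 was thus lower with mix in both arms with no overlap, at a level where a count of 0 in a library allows up to 3 reads, counting error only. Neither difference passed (adjusted p = 0.729 and 0.274, limma), and the scale of log2(FPKM + 1) compresses differences at such levels. KRT4 passed the filter through the PHGDH-siRNA group alone, where replicate 2 held most of its reads.

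KRT80 fell in both arms too. Levels were 38.8, 51.4 and 42.9 FPKM in Control-siRNA and 11.4, 12.6 and 9.51 FPKM in Control-siRNA+Mix. The mean was 3.97-fold lower with mix (log2 fold change -1.90, SE 0.47, adjusted p = 0.0273, limma) and the groups did not overlap. Under PHGDH siRNA the libraries held 64.8, 16.7 and 54.2 FPKM without mix and 14.8, 4.596 and 10.4 FPKM with it, a 4.55-fold lower mean (-1.998, SE 0.47, adjusted p = 0.0232). Replicate 2 was the lowest library of both groups, the opposite of KRT13. Without the replicate 2 pair the adjusted p was 5.9e-05 in the control arm and 0.000156 in the PHGDH-siRNA arm. In the 12-library fits, leaving out any 1 of the 6 control libraries ended the control arm call (adjusted p up to 0.105), as did leaving out PHGDH-siRNA replicate 1 or 3 or PHGDH-siRNA+Mix replicate 2 or 3 in the other arm (up to 0.0971). Both calls also ended without the filter on low values (0.0815 and 0.0746), and that of the PHGDH-siRNA arm with its 2 groups fitted alone (0.188).

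The 3 basal keratins did not move one way with mix. KRT14, the type I keratin of basal cells, was at 527, 806 and 813 FPKM in Control-siRNA and at 1383, 1340 and 1275 FPKM in Control-siRNA+Mix, with no overlap and a higher level with mix (log2 fold change 0.92, SE 0.57, adjusted p = 0.402, limma). KRT5, its type II partner, was at 356, 515 and 550 FPKM without mix and at 320, 327 and 298 FPKM with it, again with no overlap but lower with mix (-0.56, SE 0.56, adjusted p = 0.649). KRT15 was at 43.8, 69.4 and 75.4 FPKM without mix and at 28.995, 28.7 and 25.9 FPKM with it, lower without overlap (-1.11, SE 0.49, adjusted p = 0.215). Counting KRT4, KRT13 and KRT80 as well, 5 keratins were lower and 1 higher without overlap in the control arm, where 37.8% of tested genes had groups that did not overlap. None of these 3 basal changes passed in the 12 libraries. In the 10 libraries without the replicate 2 pair, in which all control libraries remain and the estimated spread is smaller, KRT14 rose (adjusted p = 0.00455) and KRT5 (0.0335) and KRT15 (0.00309) fell. That makes 5 of the 9 keratins tested there, beside 20.8% of 14507 genes. The control arm estimates are the same in both fits, and the smaller spread follows from the choice of the pair. This count therefore supports nothing further.

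Under PHGDH siRNA the basal keratins overlapped between mix and no mix. KRT14 was at 617, 2986 and 548 FPKM without mix and 1082, 2737 and 1092 FPKM with it (log2 fold change 0.56, SE 0.57, adjusted p = 0.637, limma). KRT5 was at 377, 1382 and 365 FPKM without mix and 246, 877 and 233 FPKM with it (-0.64, SE 0.56, adjusted p = 0.571). KRT15 was at 23.7, 81.4 and 25.0 FPKM and at 13.3, 44.1 and 16.6 FPKM with mix (-0.74, SE 0.49, adjusted p = 0.431). In each of these 6 sets of values replicate 2 was the highest, more than 2.5 times the next library. Between libraries of the same number, KRT5 and KRT15 were lower with mix in every case. KRT14 was higher with mix in replicates 1 and 3 and lower in replicate 2. The labels do not say that same-numbered libraries are pairs, and the overlap above takes no account of the numbers. Between mix and no mix in this arm KRT13 and KRT80 did not overlap, lower with mix, beside 21.5% of tested genes (10.3% lower). KRT4 did not overlap either, but is left out of this count because the group where it was high is the one that admitted it to the test. Without the replicate 2 pair KRT14 rose in this arm as well (0.90, SE 0.20, adjusted p = 0.0178), and KRT5 (-0.63, adjusted p = 0.0581) and KRT15 (-0.68, adjusted p = 0.0828) did not pass. Of the 9 keratins tested there, 3 passed, beside 15.1% of genes, a count that rests on the same choice and supports nothing further.

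None of the 4 simple epithelial keratins passed between mix and no mix in either arm. KRT7 was at 399, 619 and 511 FPKM in Control-siRNA and 424, 431 and 387 FPKM in Control-siRNA+Mix (log2 fold change -0.28, SE 0.45, adjusted p = 0.804, limma). KRT8 was at 267, 443 and 371 FPKM without mix and 339, 330 and 287 FPKM with it (-0.15, SE 0.20, adjusted p = 0.757). KRT18 was at 168, 252 and 183 FPKM without mix and 240.0, 220.0 and 195 FPKM with it (0.13, SE 0.31, adjusted p = 0.871). KRT19, the smallest keratin and one that many simple and transitional epithelia carry, was at 729, 1113 and 1028 FPKM without mix and 813, 776 and 752 FPKM with it (-0.27, SE 0.25, adjusted p = 0.612). The ranges overlapped for all 4, and the mix libraries lay closer together than those without mix. Under PHGDH siRNA KRT7 was at 623, 234 and 576 FPKM without mix and 582, 169 and 442 FPKM with it. KRT8 was at 392, 277 and 353 FPKM and at 329, 251 and 295 FPKM, and KRT18 at 308, 136 and 246 FPKM and at 349, 173 and 245 FPKM. Replicate 2 was the lowest library of each of these groups. In the PHGDH-siRNA arm the changes of the 4 genes lay between -0.31 and 0.17 and none passed (adjusted p 0.597 to 0.843), nor did any pass without the replicate 2 pair in either arm. The SEs leave room for changes of either sign, so these values do not show that the simple keratins were unaffected.

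**Figure D2:**
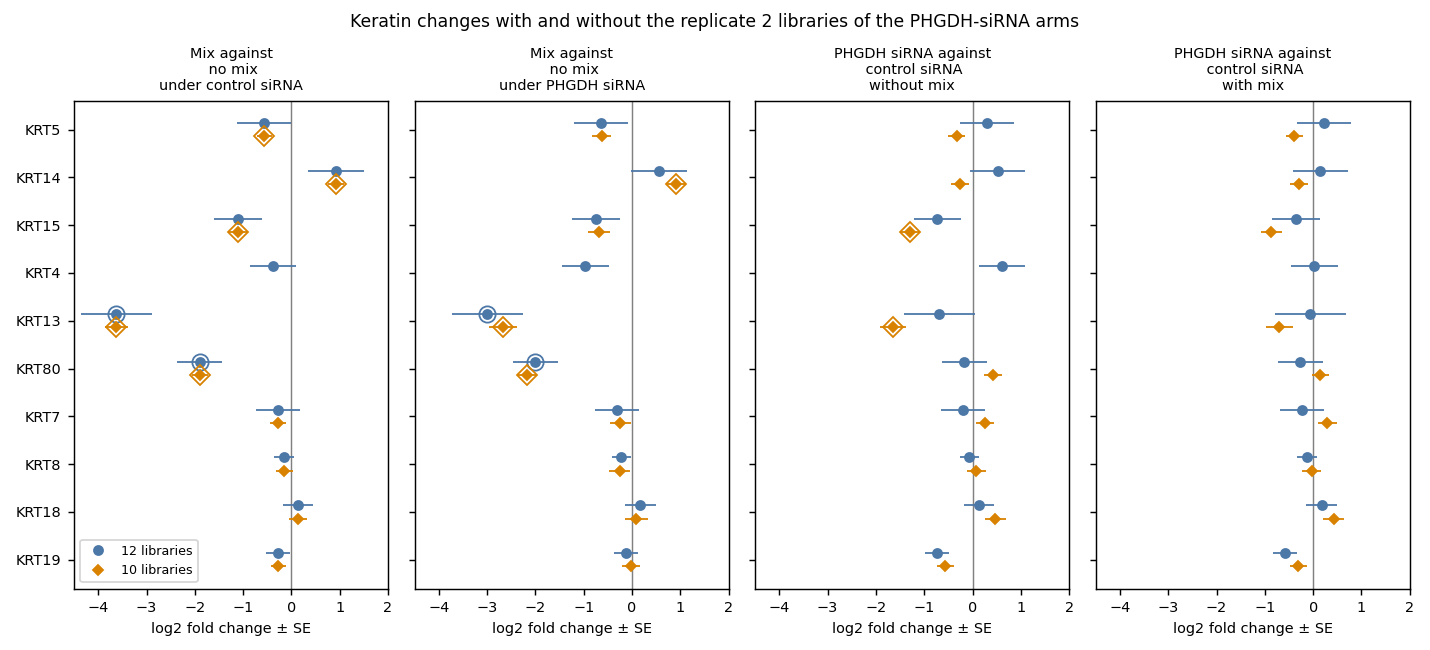
Log2 fold changes of FPKM + 1 with SE for the 10 keratins in 4 comparisons, from all 12 libraries (circles) and from the 10 libraries without replicate 2 of both PHGDH-siRNA groups (diamonds); outlined symbols passed at adjusted p under 0.05. KRT13 and KRT80 are outlined in both mix panels, and the SEs shrink without the pair.

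Ratios of partner keratins do not depend on the scaling between libraries. The ratio of KRT5 to KRT14 was 0.674, 0.640 and 0.677 in Control-siRNA and 0.231, 0.244 and 0.234 in Control-siRNA+Mix. Under PHGDH siRNA it was 0.610, 0.463 and 0.667 without mix and 0.227, 0.320 and 0.213 with it. All 6 mix libraries were below all 6 libraries without mix, the replicate 2 pair included. Within both siRNA arms the ratio was 2.54-fold lower with mix, and the exact permutation test with 400 arrangements gave p = 0.005, the smallest it can give (two-sided, adjusted p = 0.02 over 4 ratios). Within either arm alone, 3 against 3 libraries gave p = 0.1 in the exact test, the smallest possible there. Since KRT14 shares windows with KRT16 and KRT17, and KRT17 rose with mix, the part of shared reads in this ratio was not tested.

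The other ratios moved less. Summed type II to summed type I FPKM of the 10 keratins was 0.692, 0.693 and 0.657 in Control-siRNA and 0.443, 0.464 and 0.435 in Control-siRNA+Mix. Under PHGDH siRNA this ratio was 0.883, 0.492 and 0.926 without mix and 0.565, 0.391 and 0.492 with it, so the groups of that arm overlapped. Within both arms it was 1.53-fold lower with mix (exact permutation p = 0.01, adjusted p = 0.02). Per transcript length the log2 difference of this sum was -0.48 in place of -0.62 (exact permutation, adjusted p = 0.04), while ratios of 2 genes change by a constant only. KRT8 to KRT18 was 1.26-fold lower with mix within both arms (exact permutation p = 0.03, adjusted p = 0.04), but 8 of the 12 analyses that left out 1 library ended this call (adjusted p up to 0.127), those without Control-siRNA replicate 3, any Control-siRNA+Mix replicate, PHGDH-siRNA replicate 2 or 3, or PHGDH-siRNA+Mix replicate 1 or 3. KRT7 to KRT19 did not differ detectably (log2 difference -0.10, exact permutation p = 0.535). The ratio of KRT4 to KRT13 was planned but not computed, because KRT4 was at 0 in 5 libraries.

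**Figure D3:**
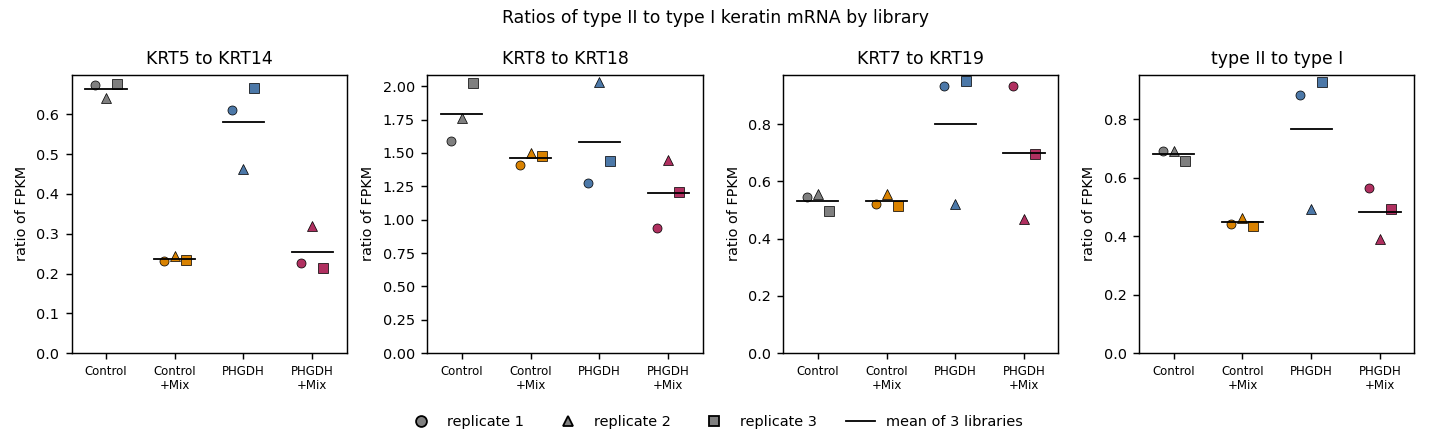
Ratios of FPKM of type II to type I keratins on linear axes from 0, 1 panel per ratio, for 4 groups. Points are libraries by replicate number and bars are means. KRT5 to KRT14 lies between 0.213 and 0.320 in the 6 mix libraries and between 0.463 and 0.677 in the others.

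The siRNA comparison asked how PHGDH knockdown changed the keratins in each mix condition. None of the 10 passed in either condition in the 12 libraries, with 1 keratin, KRT19, under an unadjusted p of 0.05 in each (beside 6.41% and 5.72% of tested genes), and none passed with limma-voom on recovered reads. Few genes passed at all, 0.0412% without mix and 0.0206% with mix. KRT19 was at 668, 449 and 607 FPKM in PHGDH-siRNA, all below the 729 to 1113 FPKM of Control-siRNA (log2 fold change -0.73, SE 0.25, adjusted p = 0.592, limma). With mix it was at 625, 361 and 636 FPKM, all below the 752 to 813 FPKM of Control-siRNA+Mix (-0.57, SE 0.25, adjusted p = 0.843). KRT19 was the 1 keratin whose groups did not overlap, in both siRNA comparisons, beside 10.2% of tested genes without mix (5.3% lower) and 14.3% with mix (7.33% lower).

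Without the replicate 2 pair, the basal KRT15 and the mucosal KRT13 fell under PHGDH siRNA in cells without mix. KRT15 was at 23.7 and 25.0 FPKM in the 2 remaining PHGDH-siRNA libraries against 43.8 to 75.4 FPKM in Control-siRNA, 2.58-fold lower (log2 fold change -1.29, SE 0.21, adjusted p = 0.0373, limma). KRT13 was at 32.7 and 31.0 FPKM against 64.8 to 146 FPKM, 3.37-fold lower (-1.65, SE 0.27, adjusted p = 0.0411). Across the 14507 genes of that fit 0.696% passed. In replicate 2 these genes were at 81.4 and 239 FPKM, above every control library, so both calls depend on leaving that library out. With mix, KRT15 (-0.86, adjusted p = 0.122) and KRT13 (-0.70, adjusted p = 0.35) were lower in the same fit and did not pass, and 0 of 9 keratins did, beside 0.379% of genes. The directions of KRT5, KRT14, KRT80 and KRT7 under PHGDH siRNA turned in both mix conditions when the pair was left out.

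Ratios under the siRNA behaved likewise. KRT7 to KRT19 was 0.547, 0.556 and 0.497 in Control-siRNA and 0.933, 0.521 and 0.950 in PHGDH-siRNA. With mix it was 0.521, 0.556 and 0.515 in the control arm and 0.932, 0.470 and 0.695 in the PHGDH-siRNA arm. Replicates 1 and 3 of the PHGDH-siRNA groups were above all control libraries and replicate 2 was not. Within both mix conditions the log2 difference was 0.44 (exact permutation p = 0.075, adjusted p = 0.22), and without the pair 0.71 (exact permutation, adjusted p = 0.0133). In the same smaller set KRT8 to KRT18 was lower (-0.43) and type II to type I higher (0.32), each with an adjusted p of 0.0133 in the exact permutation test. Each of these adjusted values comes from the smallest unadjusted p that the test can give without the pair. The pair was left out after its values were seen, so these p-values support nothing further. None of the 4 ratios passed with 12 libraries.

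The interaction asked whether the mix effect differed between the siRNA arms. No keratin passed, nor did any of the 14577 genes (limma), while 250 genes, 1.72%, and 0 of the 10 keratins had an unadjusted p under 0.05. With limma-voom on recovered reads the count was also 0, and 5 genes, none of them a keratin described here, passed without the filter on low values. Estimates for the 10 keratins lay between -0.58 (KRT4) and 0.63 (KRT13, SE 1.04). In the 12 libraries the SEs show that a difference of 1 log2 unit or more in the mix effect on KRT13 could not be told apart from 0. Without the replicate 2 pair the estimate for KRT13 was 0.95 (SE 0.38), and again 0 of 14507 genes passed (limma). There, 1 of the 9 keratins tested had an unadjusted p under 0.05. The share over all genes was not computed, so nothing can be read from this count.

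The replicate 2 libraries of the PHGDH-siRNA groups carried a different make-up of keratins. Simple keratins KRT7, KRT8, KRT18 and KRT19 made up 18.9% and 20.6% of the summed FPKM of the 10 genes in these 2 libraries and 50.1% to 64.1% in the other 10. Basal keratins KRT5, KRT14 and KRT15 made up 76.6% and 78.9% there and 32.8% to 49.4% elsewhere. Per transcript length the simple share was 27.8% and 30.9% there and 61.6% to 74.3% in the others. The summed FPKM of the 10 was 5806 and 4636 there against 2595 to 3981 elsewhere, but per transcript length the sum of PHGDH-siRNA+Mix replicate 2 (7831) was below that of Control-siRNA replicate 2 (8127). Fewer cells of a kind and less RNA per cell cannot be told apart in such bulk libraries.

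**Figure D4:**
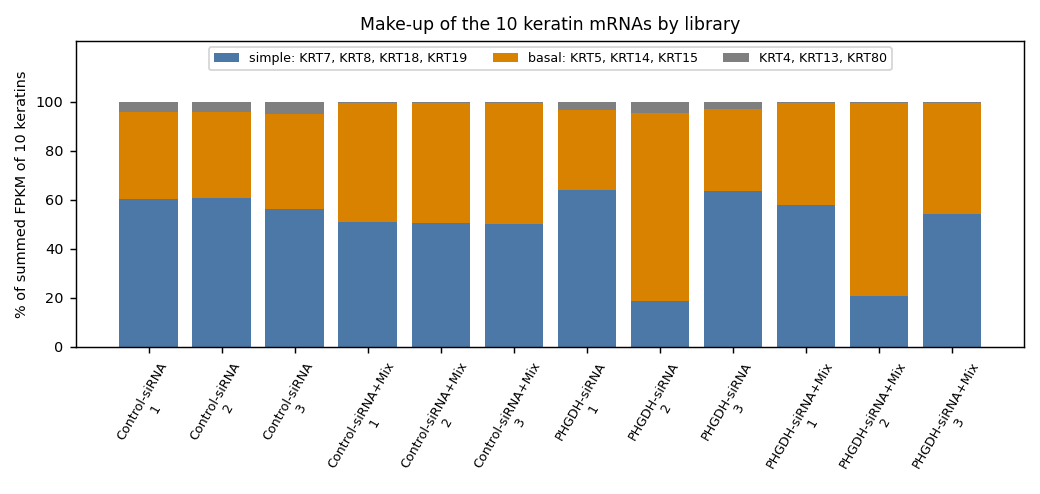
Shares of the summed FPKM of the 10 keratins, in percent, taken by simple, basal and the other keratins in each of 12 libraries. The replicate 2 libraries of the PHGDH-siRNA groups have simple shares of 18.9% and 20.6%, below the 50.1% to 64.1% of the others.

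Between replicate 2 and the mean of replicates 1 and 3, KRT13 was 7.49-fold higher in PHGDH-siRNA and 4.41-fold higher in PHGDH-siRNA+Mix. KRT14 was 5.13-fold and 2.52-fold higher, KRT5 3.72-fold and 3.66-fold higher, and KRT15 3.34-fold and 2.95-fold higher. KRT4 was 27.2-fold higher in PHGDH-siRNA, 299 reads beside 11 and 9. On the other side KRT80 was 3.56-fold and 2.74-fold lower, KRT7 2.57-fold and 3.02-fold lower, KRT18 2.03-fold and 1.71-fold lower, KRT19 1.42-fold and 1.75-fold lower, and KRT8 1.34-fold and 1.24-fold lower. Over 1 log2 unit from the other 2 libraries were 8 of the 10 keratins in PHGDH-siRNA and 6 of 10 in PHGDH-siRNA+Mix, beside 7.41% and 8.05% of tested genes, and none in the control groups, beside 1.22% and 0.761%. KRT4 is among the 8 in PHGDH-siRNA, but it passed the filter through that group alone, where replicate 2 held most of its reads. Its place in that count therefore adds nothing. These are single libraries, so the differences have no test.

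**Figure D5:**
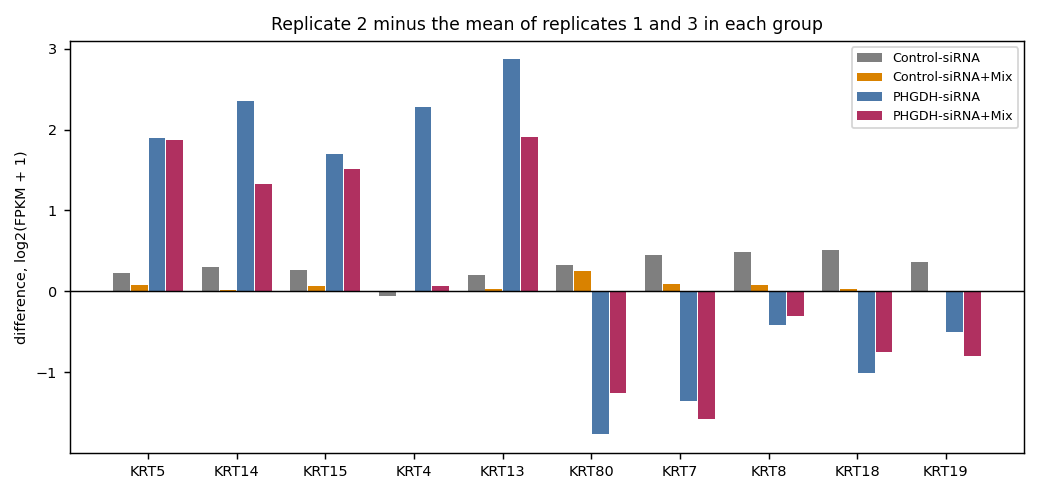
Replicate 2 minus the mean of replicates 1 and 3 on the log2(FPKM + 1) scale (y axis) for each keratin (x axis) in the 4 groups. Bars of the PHGDH-siRNA groups are up for KRT5, KRT14, KRT15, KRT4 and KRT13 and down for KRT80, KRT7, KRT8, KRT18 and KRT19, and the control bars stay within 1 unit.

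Other genes moved with these libraries, and their part in the keratin values was not tested. TP63, the transcription factor of the basal lineage, was at 22.1, 58.9 and 28.3 FPKM in PHGDH-siRNA and 53.4, 89.5 and 53.0 FPKM in PHGDH-siRNA+Mix, against 24.7 to 35.1 FPKM in Control-siRNA and 52.0 to 65.0 FPKM in Control-siRNA+Mix. KRT16, a wound keratin, was at 32.3 and 104 FPKM in the replicate 2 pair and at 5.02 to 25.0 FPKM in the other libraries. SOX2, one of 6 Merkel cell markers looked at, was at 11.6 FPKM in PHGDH-siRNA replicate 2 and at 2.38 FPKM or less elsewhere. ATOH1, which defines that lineage, was at 0 in all 12 libraries. Of the other Merkel cell markers ISL1 reached 1.36 FPKM, SYP 0.446, KRT20 0.145 and CHGA 0.0663. Summed FPKM of the 6 was 12.5 in PHGDH-siRNA replicate 2 and 3.65 or less elsewhere. Whether these values bear on cell type was not tested.

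Among the other keratins, 4 of the 5 wound keratins tested rose with mix in each arm, beside the 9.54% and 8.86% of all tested genes that passed, KRT6B (log2 fold change 5.90 and 4.89), KRT17 (2.42 and 1.77), KRT6C (1.85 and 1.67) and KRT6A (1.64 and 1.46), with a median of 1.85 and 1.67. KRT16 did not pass (1.78, adjusted p = 0.151, and 1.395, adjusted p = 0.272, limma), though it did without the replicate 2 pair (3.43e-05 and 0.0013). KRT6A was at 281 to 387 FPKM in Control-siRNA and 994 to 1060 FPKM in Control-siRNA+Mix. KRT6B and KRT6C were below the filter in Control-siRNA (0.224 and 0.264 FPKM) and met it in the other 3 groups. Of the control arm groups only the one with mix, where they were high, met it. Their place in the control arm count therefore adds nothing. Of 13 suprabasal, corneal and late keratins 4 were tested and 1 fell in each arm, KRT9 (-0.58 and -0.88). KRT10, the suprabasal keratin of skin, was at 16.1 to 29.4 FPKM in Control-siRNA and 18.1 to 22.8 FPKM with mix (-0.14, adjusted p = 0.906, limma). Of 26 hair and nail keratins 2 were tested, of which KRT81 fell in the PHGDH-siRNA arm (-1.18, adjusted p = 0.0121) and none passed in the control arm. KRT81 entered the test through the 2 groups without mix, where it was high.

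Genes that anchor, regulate or accompany keratins were followed by lists, whose counts are to be read against the 9.54% of all tested genes that passed in the control arm and the 8.86% in the PHGDH-siRNA arm. Of 17 anchors of keratin filaments at desmosomes and hemidesmosomes, COL17A1 rose in the control arm (1.21) and COL17A1 (1.18) and ITGA6 (1.21) in the PHGDH-siRNA arm, and none fell. Of 16 basal layer genes 8 rose and 1 fell in the control arm and 9 rose and 1 fell in the PHGDH-siRNA arm, among them the laminin chain LAMA3 (2.05 and 2.12) and the cadherin CDH3 (1.24 and 1.10). COL17A1 and ITGA6 are on both lists. DLK2 was the gene of that list that fell (-0.88 and -0.86). TP63 is on it too and did not pass (0.94, adjusted p = 0.103, and 0.90, adjusted p = 0.118, limma), though it did without the replicate 2 pair (0.00222 and 0.00455). The median change of the basal list was 0.86 and 0.91. Of the basal keratins, KRT14 had positive estimates (0.92 and 0.56) and KRT5 and KRT15 negative ones, none of which passed in the 12 libraries.

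Of 26 tested transcription factors of keratin genes, EHF (0.99) and CEBPB (1.25) rose and GRHL2 (-0.68) and CEBPA (-1.53) fell in the control arm. In the PHGDH-siRNA arm EHF rose (1.1996) and GRHL2 fell (-0.50). Of 9 tested genes of mucosal squamous differentiation, 1 rose and 2 fell in the control arm and 2 rose and 2 fell in the other, with ECM1 up (0.98 and 0.89) and EMP1 (-1.05 and -0.68) and SCEL (-1.14 and -0.84) down. SCEL entered the test only through the groups without mix, and CRCT1, the other gene that rose, only through PHGDH-siRNA+Mix, in each case where the gene was high. Of 13 tested retinoid pathway genes, TGM2 (2.67 and 2.51) and CYP26B1 (1.37 and 1.21) rose in both arms, RARG (-0.90) and DHRS9 (-0.85) fell in the control arm and DHRS3 (-0.60) in the other. TGM2 was below the filter in Control-siRNA (0.385 FPKM), so of the control arm groups only the one with mix, where it was high, met it. Of 11 tested simple and luminal epithelial genes, the mucin MUC1 rose in both arms (1.15 and 0.93) and AGR2 fell in the control arm (-0.93). Of 7 tested non-keratin intermediate filament genes 2 fell in each arm, the lamin LMNB1 in both (-0.87 and -1.14), INA in the control arm (-0.58) and LMNB2 in the other (-0.72). In the siRNA comparisons 1 gene of all these lists passed in the 12 libraries, AGR2, lower under PHGDH siRNA without mix (-0.86, adjusted p = 0.0295, limma). AGR2 (1.63 ± 0.21 FPKM in Control-siRNA, 0.447 ± 0.061 in PHGDH-siRNA) and INA entered the test through Control-siRNA alone, the group where they were high, so their calls support nothing further.

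Profiles were compared over the 12 libraries by the root mean square difference of log2(FPKM + 1) after centring each gene on its mean. For the 3 keratins with the widest range of group means, the nearest genes were KLK10 (0.27), CDKN2C (0.32), RAB26 (0.32), NGFR (0.34) and CELSR2 (0.34) for KRT15, CPA4 (0.32), FGD3 (0.32), OR4C6 (0.37), LBH (0.41) and CALB2 (0.43) for KRT80, and OLFML2A (0.85), ALPP (0.91), METTL7A (0.96), CLU (0.97) and ID3 (0.97) for KRT13. The distances from KRT13 were the largest, but the measure is not scaled and grows with the size of a gene's changes. The range of group means was 3.68 log2 units for KRT13, 2.17 for KRT80 and 1.47 for KRT15. The nearest member to KRT13 was KRT15, 1.24 away. KRT8 and KRT18 were each other's nearest members (0.29), as were KRT5 and KRT4 (0.46), the latter helped by the compressed scale of a gene near 0. KRT14 and KRT15 were nearest to KRT5 (0.70 and 0.47), KRT7 to KRT18 (0.37), KRT19 to KRT8 (0.31) and KRT80 to KRT7 (0.84).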

How the data were processed

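RNA of 12 HaCaT libraries was measured as FPKM in a table deposited by the authors, 1 column per sample and all columns used. The tools named, per the submitters' processing notes, are HISAT2 2.0.5, CASAVA and featureCounts 1.5.0-p3, with the build hg38 and no settings. FPKM times gene length gave whole reads within 0.05 for 100% of values up to 200 reads, from which depth was taken. A count model had been planned in case of counts. For FPKM, any gene averaging at least 0.5 in 1 or more groups entered limma 3.58.1 (R 4.3.3; trend and robust) on log2(FPKM + 1) with 4 group means, 8 residual degrees of freedom and 5 comparisons, two-sided, adjusted over all genes tested. Ratios were tested by exact permutation over libraries. The code was tested on simulated data. The 10 members and the gene lists were chosen with earlier results of these data known. All 10 members are named; each list names at most 4 genes that passed, by lowest adjusted p, and PHGDH, TP63 and the nearest profiles of 3 keratins are named by rule. KRT10, KRT16, SOX2 and ATOH1 were chosen after their values were seen, and the other Merkel cell markers are named beside them. Same-numbered libraries were not taken as pairs: 5 of 18 pairs correlated above 0.1 (-0.387 to 0.775). Among these were replicates 1, 2 and 3 of PHGDH-siRNA with those of PHGDH-siRNA+Mix (0.69, 0.775 and 0.459). A fit without pairs leaves that shared part in the spread of the mix comparison of this arm. Alternatives were pseudocount 0.1, no filter, a filter of 1 FPKM, other scalings, limma-voom, a replicate block, the groups alone, limma without trend and robust options, summed identifiers, leaving out libraries and, added after the data were seen, transcript lengths (longest coding transcript of GENCODE 29).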

Additional observations from a re-analysis of the deposited data

How the results depend on the processing

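The directions of the 4 called changes, KRT13 and KRT80 with mix in each arm, were kept in every alternative run, and 16 of 40 member values, none of them called, changed sign in some alternative. None of 80 values under another scaling changed sign. The number of keratins called with mix was 1 (control arm) and 0 (PHGDH-siRNA arm) without the filter, and 4 and 0 with the groups fitted alone. Without the replicate 2 pair 5 were called in the control arm, and 2 under PHGDH siRNA without mix. Leaving out 1 library gave 0 to 1 in the control arm and 0 to 3 in the PHGDH-siRNA arm. With the replicate block 2 and 2 keratins were called with mix, beside 1293 and 1188 of all genes tested, and no call among the keratins changed. The block gave 0 genes in each siRNA comparison, where 6 and 3 had passed. Over all genes, the counts in the 2 mix comparisons were 1391 and 1291. They were 2642 and 238 with the groups alone, 3023 and 2190 without the pair, 939 and 761 without the filter, and 658 to 1223 and 665 to 1644 with 1 library left out. The siRNA comparisons gave 101 and 55 genes without the pair. The cause of these shifts was not tested, apart from the fewer libraries and the wider set of genes that the settings themselves bring.

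Leaving out the replicate 2 pair turned KRT5 (-0.33), KRT14 (-0.27), KRT80 (0.42), KRT7 (0.26) and KRT8 (0.077) under PHGDH siRNA without mix, KRT5 (-0.39), KRT14 (-0.29), KRT80 (0.15) and KRT7 (0.29) with mix, and the KRT5 to KRT14 ratio with mix (-0.10). With 1 library left out, log2 values that changed sign ran as follows. For the siRNA without mix the range was -0.26 to 0.10 for KRT8, -0.11 to 0.47 for KRT18, -0.33 to 0.63 for KRT5, -0.27 to 0.95 for KRT14, -0.53 to 0.42 for KRT80, -0.45 to 0.26 for KRT7, -0.045 to 0.41 for the type II to type I ratio. For mix in the control arm the range was -0.35 to 0.014 for KRT8, -0.056 to 0.024 for the KRT7 to KRT19 ratio. For mix in the PHGDH-siRNA arm the range was -0.28 to 0.15 for KRT19, -0.16 to 0.42 for KRT18, -0.77 to 0.21 for KRT7, -0.48 to 0.059 for the KRT7 to KRT19 ratio. For the siRNA with mix the range was -0.70 to 0.27 for KRT13, -0.079 to 0.42 for KRT18, -0.39 to 0.56 for KRT5, -0.29 to 0.38 for KRT14, -0.60 to 0.15 for KRT80, -0.59 to 0.29 for KRT7, -0.029 to 0.24 for the type II to type I ratio, -0.10 to 0.19 for the KRT5 to KRT14 ratio. For the siRNA within both mix conditions the range was -0.16 to 0.011 for the KRT5 to KRT14 ratio. For mix within both arms the range was -0.25 to 0.026 for the KRT7 to KRT19 ratio.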
